A study of Mus musculus with 3 samples.

Results

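CD8 T cells that held *Gzmk* and lacked *Havcr2* were taken from single-cell RNA-seq data of tumor-infiltrating leukocytes (TILs) and were chosen by their counts of unique molecular identifiers (UMIs), each UMI standing for 1 captured RNA molecule. Only TILs in which 1000 to 6000 genes were seen, and less than 7.5% of UMIs were mitochondrial, entered the count. A CD8 T cell held at least 2 UMIs of *Cd3e*, at least 1 each of *Cd8a* and *Cd8b1*, none of *Cd4* or *Ncr1*, and at most 3 of *Mki67* and *Top2a* together. Of these, the *Gzmk*+ *Havcr2*- cells held at least 2 UMIs of *Gzmk* and none of *Havcr2*. They numbered 1139 of 7727 CD8 T cells and of 31943 TILs kept, of which the first Kaede-green library held 391, the second 428 and the Kaede-red library 320. They were set against 1744 *Gzmk*- *Havcr2*+ CD8 T cells (no UMI of *Gzmk*, at least 1 of *Havcr2*) of the same libraries. Further comparisons were made with 445 *Gzmk*+ *Havcr2*+ cells (at least 2 and at least 1 UMI) and 3390 *Gzmk*- *Havcr2*- cells (none of either). Another 1009 CD8 T cells with 1 *Gzmk* UMI were in no group. These UMI counts chose the cells, so the levels of the 9 genes named in the rule are not findings, and those genes were taken out before any test.

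By the labels, MC38-Ova, the MC38 mouse colon adenocarcinoma line with ovalbumin as a model antigen, was grown under the skin of Kaede mice, and TILs were taken from these tumors. The study's text names the line without ovalbumin for this experiment. Kaede is a fluorescent protein whose color switches to red under violet light. All animals were wild-type C57BL/6 Kaede mice that received 250000 tumor cells and, by the labels, an isotype control antibody. The tumors were photoconverted on day 13 and taken on day 15, so Kaede-green cells entered the tumor within the last 48 h and Kaede-red cells were there before. Live CD45+ TER119- Kaede+ cells were sorted without the CD11b+ NK1.1- fraction, a gate that takes out most myeloid cells. Kaede-green TILs gave 2 libraries, labelled as biological replicates, and Kaede-red TILs gave 1, and the number of mice behind each was not given in the sources used here. Values for the 3 libraries are given below in the order Kaede-green 1, Kaede-green 2 and Kaede-red.

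Granzyme K is a serine protease of the granzyme family that CD8 T cells keep in secretory granules, and *Havcr2* encodes TIM-3, an inhibitory receptor that is typical of terminally exhausted T cells in tumors. CD8 T cells under lasting antigen exposure are commonly ordered from progenitor cells, which hold the transcription factor TCF1 (*Tcf7*) and the surface receptor SLAMF6, to terminally exhausted effector cells, which hold TIM-3, perforin and many granzymes. Cells with granzyme K, CXCR3 and EOMES are often described as memory-like or transitional within that order. On GRCm38, *Gzmk* lies at chr13:113171608-113225908 on the minus strand near its relative *Gzma* (chr13:113093825-113100981, minus strand), and *Havcr2* lies at chr11:46454935-46481255 on the plus strand.

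The libraries held 10498, 12327 and 11956 cell barcodes with 87193225, 129438292 and 175848894 UMIs. Different libraries shared 20, 28 and 36 barcodes, none of them a *Gzmk*+ *Havcr2*- cell in both. The *Gzmk*+ *Havcr2*- cells were the shallowest of the 4 groups in every library, with medians of 5682, 7394 and 6785 UMIs, against 10245, 10896 and 14851.5 in *Gzmk*- *Havcr2*+ cells. A shallow cell is more likely to show no *Havcr2* UMI, so every comparison was also run on cells with 4000 to 12000 UMIs, where the medians were 6012.5, 7156 and 6554 against 7634, 8662 and 9688. The nuclear RNA *Malat1*, a sign of RNA quality, took 2.42%, 2.56% and 1.93% of the UMIs of *Gzmk*+ *Havcr2*- cells and 1.12%, 1.46% and 1.01% of those of *Gzmk*- *Havcr2*+ cells. The part of this difference in the results below was not tested.

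The cells carried the T cell genes that their name calls for. *Cd3d*, *Cd3g* and *Trac*, which encode parts of the T cell receptor complex and were not in the rule, stood at 1195, 1260.5 and 1270.0 CPM, at 957, 1386 and 1397 CPM and at 775, 707 and 856 CPM, where CPM gives the UMIs of a gene, summed over a group's cells in a library, with all sums scaled to the same total. Of the defining markers of other cells, *Cpa3* and *Mcpt4* (mast cells) and *Krt8* (tumor) were at 0, *Krt8* in all 4 groups. *Fcgr3* (NK cells), *Foxp3* (regulatory T cells) and *Csf1r* (macrophages) stayed at or under 3.78 CPM in each library. Other markers of such cells stood higher. *Izumo1r* (regulatory and CD4 T cells) had 9.07, 6.51 and 5.22 CPM. *Kit* (mast cells) reached 5.38 CPM, and the myeloid genes *Lyz2* and *C1qb* reached 5.29 and 5.66 CPM. The NK cell receptor genes *Klrb1c* and *Klra8* reached 13.6 and 16.4 CPM in Kaede-green 2, and the B cell gene *Cd79a* 13.9 CPM. *Trdc* and *Tcrg-C1*, constant regions of the γδ T cell receptor, stood at 47.2, 13.9 and 12.05 CPM and at 18.1, 7.36 and 13.7 CPM. *Slamf6* and *Tnfsf8* were given with the name as markers of these cells, so their levels are a description without a test. *Slamf6* stood at 51.0, 45.6 and 28.9 CPM, above the 14.7, 14.9 and 3.71 CPM of *Gzmk*- *Havcr2*+ cells in each library and without overlap, and near the 39.8, 31.3 and 18.9 CPM of *Gzmk*- *Havcr2*- cells. *Tnfsf8*, which encodes CD30 ligand, went against the name. It stood at 4.53, 3.40 and 4.82 CPM, within the range of the *Gzmk*- *Havcr2*+ cells (2.29, 6.40 and 2.83 CPM) and below the 29.6, 23.4 and 20.4 CPM of *Gzmk*- *Havcr2*- cells. The cells are therefore called by the 2 genes that chose them.

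Cells just inside the threshold held more *Ccl5* and *Eomes* than those just outside it. In cells with exactly 2 *Gzmk* UMIs (132, 125 and 111 cells), *Ccl5* stood at 10746, 8695 and 6338 CPM. In the 200, 239 and 178 cells with 1 *Gzmk* UMI, which the rule leaves out, it stood at 8129.7, 6053 and 3470.0 CPM. *Eomes* stood at 47.2, 63.0 and 33.2 CPM just inside and at 39.5, 33.7 and 15.1 CPM just outside. *Slamf6* and *Tcf7* did not follow. *Slamf6* had 40.4, 32.4 and 25.2 CPM just inside against 49.6, 38.2 and 19.1 CPM just outside, lower in both Kaede-green libraries, and *Tcf7* had 42.7, 69.5 and 24.1 CPM against 72.3, 61.5 and 31.3 CPM, lower in 2 of 3. On the side of *Havcr2*, cells with *Gzmk* and 1 *Havcr2* UMI (43, 84 and 46 cells) held 26.1, 19.0 and 7.25 CPM of *Tcf7*.

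Among the CD8 T cells of a library, *Gzmk*+ *Havcr2*- cells made up 18.9%, 16.3% and 10.5%, with exact 95% intervals of 17.3 to 20.7%, 14.9 to 17.7% and 9.48 to 11.7%. The *Gzmk*- *Havcr2*+ cells ran the other way, at 11.7%, 20.3% and 32.0%. The share in Kaede-red lay below both Kaede-green libraries, but it moved with depth, which also differed between the libraries. Among CD8 T cells with 4000 to 12000 UMIs the shares were 20.3%, 19.7% and 18.5%, with overlapping intervals (18.3 to 22.5%, 17.8 to 21.6% and 16.6 to 20.6%). After each cell had been thinned to 3000 UMIs and sorted anew, the shares were 16.2%, 10.1% and 6.20%. These treatments of depth disagree, the Kaede-red cells come from 1 library, and color and library cannot be told apart, so no order of the colors is read from the share. Intervals cover counting error only.

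**Figure D1:**
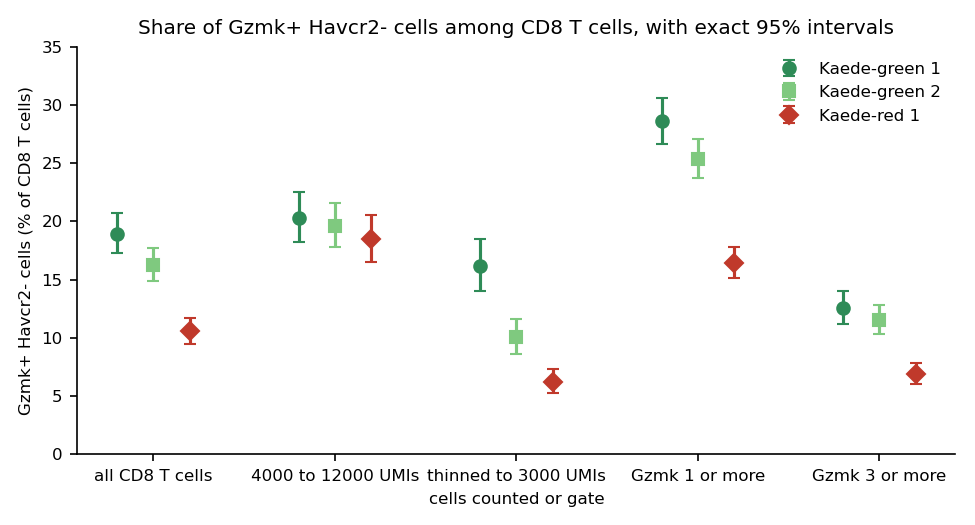
Share of *Gzmk*+ *Havcr2*- cells among CD8 T cells (vertical axis, %) in each library, for all CD8 T cells, for cells of 4000 to 12000 UMIs, after thinning to 3000 UMIs, and for gates of at least 1 or at least 3 *Gzmk* UMIs; bars are exact 95% intervals. Kaede-red lies lowest in every setting, but at 4000 to 12000 UMIs its 18.5% falls within the intervals of both Kaede-green libraries.

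Against *Gzmk*- *Havcr2*+ cells, the *Gzmk*+ *Havcr2*- cells held more RNA of interferon-stimulated genes, of some memory-linked genes such as *Tcf7* and *Bcl2*, and of the chemokine *Ccl5*, and less of perforin, of most granzymes of the chromosome 14 cluster, of effector cytokines and of glycolytic enzymes. Of 9326 genes tested on sums per library, 1610 (17.3%) were higher and 1548 (16.6%) lower at an adjusted p under 0.05. All adjusted p-values are from edgeR's quasi-likelihood test with the library as a block and Benjamini-Hochberg adjustment over all genes tested. Fold changes are log2 ± an SE derived from that test's statistic, whose estimate of spread also draws on other genes. The p-values measure how far the difference between the groups varied across these 3 libraries, which are of both colors. Whether the libraries share animals was not given in the sources used here. In cells with 4000 to 12000 UMIs 824 genes were higher and 663 lower, and DESeq2 gave 902 and 901. With 33.9% of genes called in either direction, a few called genes on a list say little, and each list below is given beside that background.

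Among genes of memory and progenitor T cells, 8 of 18 tested were higher, 3 were lower and 7 missed the threshold, with a median log2 fold change of 0.56 against 0.01 over all genes tested. In cells with 4000 to 12000 UMIs 6 of 17 were higher and 4 lower. Per cell, the list as a whole differed little in the Kaede-green libraries. Its 20 genes took 0.229%, 0.223% and 0.207% of the UMIs of the median *Gzmk*+ *Havcr2*- cell, against 0.227%, 0.229% and 0.166% in *Gzmk*- *Havcr2*+ cells, and 51.2%, 47.2% and 66.9% of the former lay above the median of the latter. The counts thus stand for single genes that rose and others that fell. *Tcf7*, which encodes TCF1, the factor of stem-like T cells, stood at 50.2, 56.1 and 22.5 CPM against 12.8, 16.4 and 3.71 CPM (2.03 ± 0.17, adjusted p = 2.70e-07). The groups did not overlap, and Kaede-red was lowest in both. *Bcl2*, a factor of cell survival, stood at 306, 198 and 383 CPM against 101, 90.1 and 144 CPM (1.35 ± 0.09, adjusted p = 5.63e-08). *S1pr1* and *Klf2*, a receptor for leaving tissue and the factor that drives it, and *Lef1*, a relative of TCF1, were also higher, by 2.22, 1.44 and 1.53. Other memory-linked genes moved the opposite way. *Il7r*, the receptor for interleukin 7, stood at 133, 178 and 109 CPM against 291, 273 and 297 CPM and fell by 1.07 ± 0.13 (adjusted p = 1.09e-05). *Ccr7* and *Xcl1*, a lymph node homing receptor and a chemokine that draws dendritic cells, fell by 1.20 and 2.17.

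Of 14 genes of inhibitory receptors, 9 were lower, 3 higher and 2 missed the threshold, with a median of -0.55. *Lag3*, which binds MHC class II, stood at 189, 217 and 321 CPM against 618, 532 and 675 CPM (-1.38 ± 0.10, adjusted p = 1.16e-07). *Cd200* and *Cd244a*, a ligand and a receptor of inhibitory signaling, fell by 2.74 and 1.62, and *Klrc1*, which encodes NKG2A, by 0.81. *Pdcd1*, which encodes PD-1, was the least changed of those called, at 441, 389 and 588 CPM against 619, 435 and 653 CPM. The groups overlapped, it fell by 0.29 ± 0.09 (adjusted p = 0.0168), and it missed the threshold without Kaede-green 1 (adjusted p = 0.192), without the library block (0.285) and after thinning (0.140). *Lilrb4a*, *Btla* and *Klrg1*, further inhibitory receptors, were higher, by 1.32, 1.25 and 1.52. *Tigit* stood at 10.2, 9.63 and 12.5 CPM against 12.1, 10.1 and 10.1 CPM (-0.01 ± 0.20, adjusted p = 0.981), and *Entpd1*, which encodes CD39, had 65.0, 55.2 and 70.7 CPM against 40.3, 44.4 and 77.5 CPM (0.22 ± 0.14, adjusted p = 0.242, and 0.47, adjusted p = 0.00816, without Kaede-red).

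Exhaustion-linked regulators were mostly lower as well, 8 of 14 tested, with 2 higher and 4 not past the threshold (median -0.43). *Rgs16*, *Rbpj* and *Id2*, a regulator of G protein signaling, the mediator of Notch signaling and an inhibitor of E proteins, fell by 1.74, 1.31 and 1.04. *Ikzf2*, the factor Helios, fell by 0.89. The genes that were higher were *Maf* and *Tox*, transcription factors found in exhausted cells. *Maf* stood at 163, 86.1 and 121 CPM against 30.4, 33.4 and 27.5 CPM (1.93 ± 0.15, adjusted p = 1.38e-07). *Tox* stood at 119, 44.2 and 133 CPM against 47.5, 49.0 and 39.8 CPM. The rise of *Tox* (1.00 ± 0.23, adjusted p = 0.00336) was seen in 2 of 3 libraries, since Kaede-green 2 lay at the level of the comparison cells, and DESeq2 gave an adjusted p of 0.227 here, and of 0.0701 and 0.151 for *Tox* in the comparisons with *Gzmk*+ *Havcr2*+ and *Gzmk*- *Havcr2*- cells below. Among lineage factors, *Klf3*, a repressor of the Krüppel-like family, had the largest rise of the genes named in this comparison, with 108, 85.0 and 49.0 CPM against 6.22, 9.98 and 2.45 CPM (3.70 ± 0.19, adjusted p = 3.59e-09). An uncharacterized gene overlaps *Klf3* on the same strand. *Eomes*, the T-box factor of memory-like CD8 T cells, stood at 80.9, 61.5 and 41.8 CPM against 9.17, 18.9 and 6.16 CPM (2.37 ± 0.20, adjusted p = 3.11e-07). Its relative *Tbx21*, which encodes T-bet, did not pass (58.9, 47.3 and 58.2 CPM against 70.7, 52.0 and 74.2 CPM, adjusted p = 0.0637). It was lower and passed when genes with low counts were kept (-0.32, adjusted p = 0.0460). *Runx3* did not pass either (0.22 ± 0.09, adjusted p = 0.0573), though it was higher and passed at 4000 to 12000 UMIs (0.43, adjusted p = 0.0164), after thinning (0.34, adjusted p = 0.0428) and without Kaede-red (0.31, adjusted p = 0.00724). *Irf8*, a factor of the interferon regulatory family, fell by 2.13. On the whole list of 12 lineage factors tested, 4 were higher, 3 lower and 5 not past the threshold, a share of calls above the background of 33.9% in the same comparison but in both directions.

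**Figure D2:**
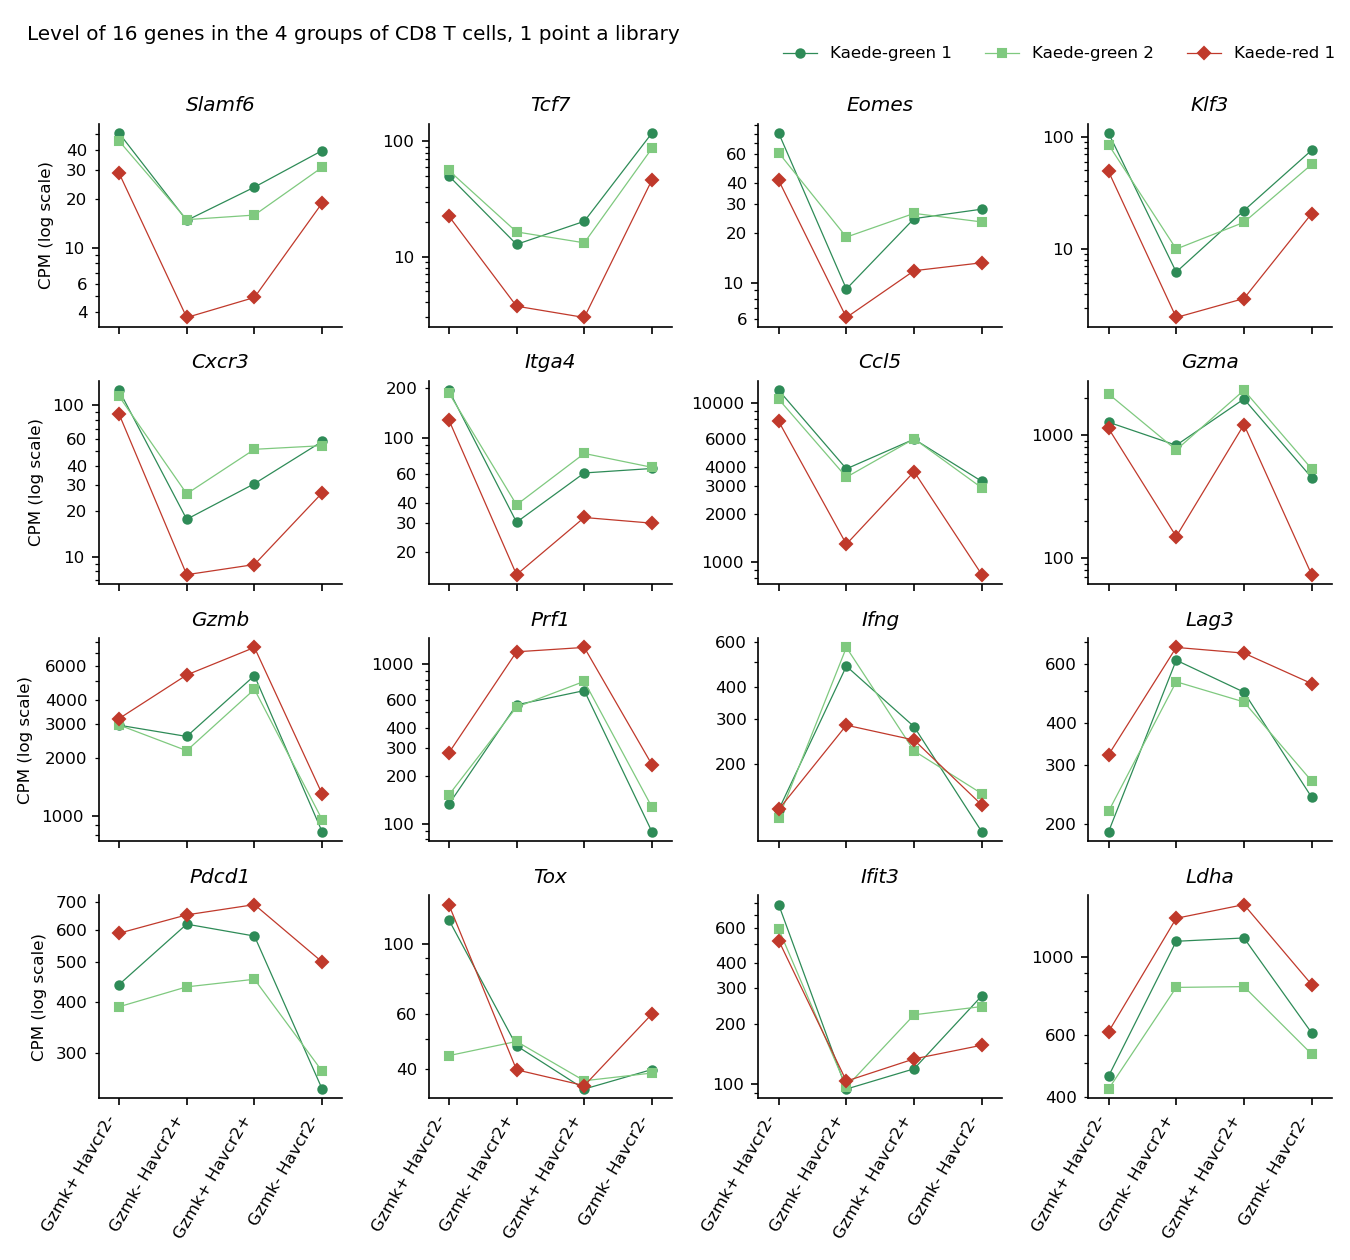
Level of 16 genes in CPM (vertical axes, log scale) in the 4 groups of CD8 T cells, 1 point for each library and a line joining the points of a library. *Tcf7*, *Eomes*, *Klf3*, *Cxcr3*, *Itga4*, *Ccl5* and *Ifit3* lie higher in *Gzmk*+ *Havcr2*- than in *Gzmk*- *Havcr2*+ cells in all 3 libraries, *Prf1*, *Ifng*, *Lag3* and *Ldha* lie lower, and *Gzmb* and *Tox* do not move one way in all 3.

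Cytotoxic granule genes were divided by gene, with 5 of 17 tested higher, 9 lower and 3 not past the threshold (median -0.23). The granzymes that lie beside *Gzmb* on chromosome 14 were far lower. *Gzme* (chr14:56117626-56120625) stood at 0.756, 5.95 and 28.1 CPM against 241, 119 and 588 CPM (-4.86 ± 0.26, adjusted p = 4.51e-09). *Gzmd* and *Gzmf* fell by 4.35 ± 0.25 and 3.26 ± 0.39, and *Gzmc* by 2.45 ± 0.16. These granzymes are near copies of each other, so counts may be split among them, and few cells carried much of some sums, up to 51.4% from 1 cell for *Gzmd* and 79.3% for *Gzmc*. *Prf1* encodes perforin, which opens the target cell's membrane. It stood at 132, 151 and 278 CPM against 556, 538 and 1194 CPM, without overlap (-2.03 ± 0.09, adjusted p = 1.23e-09). *Gzma* ran the other way, at 1271, 2158 and 1132 CPM against 826, 756 and 149.8 CPM (1.65 ± 0.26, adjusted p = 1.82e-04, and 0.0740 without the library block), and *Gzmm* was higher by 1.84. *Gzmb*, the main granzyme of cytotoxic T cells, stood at 2949.9, 2957 and 3189.5 CPM against 2579.5, 2177 and 5369 CPM, higher in both Kaede-green libraries and lower in Kaede-red (-0.06 ± 0.15, adjusted p = 0.797). Without Kaede-red, *Gzmb* was higher by 0.31 (adjusted p = 8.75e-04). *Nkg7*, a granule membrane protein, did not pass either (2648, 2738 and 3939 CPM against 3066, 3314 and 3696 CPM, adjusted p = 0.0995), but it was lower and passed at 4000 to 12000 UMIs (-0.39, adjusted p = 0.00326), after thinning (-0.33, adjusted p = 0.0236) and without Kaede-red (-0.25, adjusted p = 0.00212).

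Of 15 cytokine and chemokine genes tested, 10 were lower, 2 higher and 3 not past the threshold, and the median was -1.75. *Ifng*, the effector cytokine interferon-γ, stood at 133, 124 and 134 CPM against 482, 569.5 and 284 CPM (-1.75 ± 0.14, adjusted p = 2.62e-07). *Ccl1* and *Ccl3*, chemokines of activated T cells, fell by 3.95 and 3.16, and *Spp1*, which encodes osteopontin, fell by 3.07. *Tnfsf11*, which encodes RANKL, fell by 3.14. For *Ccl1*, 1 cell carried up to 54.1% of a sum. *Ccl5* encodes a chemokine of effector and memory CD8 T cells. It stood at 12105, 10632 and 7708 CPM against 3874, 3434 and 1299.8 CPM (1.92 ± 0.13, adjusted p = 3.41e-08). *Cxcl10*, an interferon-induced ligand of CXCR3, stood at 664, 429 and 559 CPM against 165, 123 and 89.7 CPM (2.13 ± 0.12, adjusted p = 8.60e-09). Its receptor *Cxcr3* was among the largest rises, with 126, 115 and 88.0 CPM against 17.7, 26.1 and 7.60 CPM (2.77 ± 0.19, adjusted p = 3.82e-08).

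All 13 chemokine receptor genes tested passed the threshold, 8 higher and 5 lower (median 0.58). *Cxcr4* and *Ccr2*, receptors for CXCL12 and CCL2, rose with *Cxcr3*, by 1.90 ± 0.11 and 1.57 ± 0.11. *Cxcr6*, a receptor of resident T cells in tumors, stood at 256, 262 and 311 CPM against 468, 466 and 484 CPM (-0.80 ± 0.08, adjusted p = 2.16e-06). Among adhesion and residency genes 7 of 16 were higher and 4 lower (median 0.37). The integrin chains *Itga4* and *Itgb1*, which pair as VLA-4, rose by 2.65 ± 0.13 and 1.31 ± 0.09, with *Itga4* at 194, 187 and 128 CPM against 30.4, 38.9 and 14.6 CPM. *Cd69*, a retention and activation marker, rose by 1.30 ± 0.10, and *Ly6c2*, a marker of effector and memory cells, by 1.04 ± 0.07. Of 13 costimulation and TNF family genes 3 were higher and 6 lower (median -0.06), with *Cd28* up by 0.80 and *Tnfrsf4*, *Tnfrsf9* and *Tnfrsf18* (OX40, 4-1BB and GITR) down by 2.27, 1.40 and 0.55. Of 19 cytokine receptor and signaling genes 5 were higher and 8 lower (median 0.03). *Il2ra*, the high-affinity chain of the interleukin 2 receptor, fell by 2.10 ± 0.13, while *Socs3*, *Socs1* and *Ifngr1*, inhibitors of cytokine signaling and a receptor chain for interferon-γ, rose by 1.85, 0.93 and 0.86. *Klrd1*, *Klrc1* and *Klre1* were among 6 lower killer lectin receptors of 13 tested, and *Klrg1* was the 1 that was higher.

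Interferon-stimulated genes, which cells switch on when type I or type II interferon reaches them, were the list with the most even direction. Of 19 tested, 18 were higher and 0 lower, and *Ifi44* (3.40, 2.83 and 3.61 CPM against 1.31, 6.11 and 3.83 CPM) missed the threshold at adjusted p = 0.632. The median was 1.64, and in cells with 4000 to 12000 UMIs all 18 that could be tested were higher. *Ifit3*, an antiviral protein that binds foreign RNA complexes, stood at 787, 593 and 521 CPM against 94.3, 96.7 and 103 CPM (2.63 ± 0.12, adjusted p = 1.23e-09). *Rsad2*, which encodes viperin, stood at 342, 260.0 and 251 CPM against 51.7, 51.7 and 44.0 CPM (2.48 ± 0.10, adjusted p = 8.65e-10). The groups did not overlap for either gene, and the 3 libraries lay close together within each group. *Irf7*, a factor that carries the interferon signal, rose by 1.63 ± 0.09, *Ifit2* by 2.50, *Oasl2* by 2.89, and *Bst2*, which encodes tetherin, by 1.20. Of the 10 largest rises that the naming rule took from all genes, *Ifit1bl1*, *Tgtp1*, *Ifit3b*, *Iigp1*, *Oasl2* and *Ifit3* are known interferon-induced genes. The others were *Klf3*, *Cxcr3*, *Itga4* and *Crim1*. *Ifit3* and *Ifit3b* are close relatives on chromosome 19, so their counts may be split. The 10 largest falls were *Gzme*, *Gzmd*, *Ccl1*, *Serpinb9b*, *Il1r2*, *Serpine2*, *Gzmf*, *Myo10*, *Ccl3* and *Igfbp7*, from -4.86 to -3.14, and for *Il1r2* 1 cell carried up to 73.9% of a sum.

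The interferon-stimulated RNA was spread over the cells rather than held by a few. The 19 genes took 1.26%, 0.872% and 0.972% of the UMIs of the median *Gzmk*+ *Havcr2*- cell, against 0.239%, 0.330% and 0.393% in *Gzmk*- *Havcr2*+ cells. Of the *Gzmk*+ *Havcr2*- cells, 92.6%, 82.5% and 82.5% lay above the median of the *Gzmk*- *Havcr2*+ cells of their library. The cells still differed widely among themselves. The tenth percentile was 0.307%, 0.217% and 0.228%, and the ninetieth 2.73%, 2.32% and 2.43%.

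Genes of glycolysis and the hypoxia response were the opposite case, with 17 of 20 tested lower, 0 higher and 3 not past the threshold (median -1.08), and with 13 of 19 lower at 4000 to 12000 UMIs. *Ldha*, which encodes lactate dehydrogenase, stood at 459, 422 and 614 CPM against 1109.5, 821 and 1289.5 CPM (-1.13 ± 0.08, adjusted p = 8.12e-08). *Tpi1* and *Pgk1*, enzymes of glycolysis, fell by 1.48 ± 0.09 and 1.35 ± 0.09, and *Mif*, a cytokine induced by hypoxia, by 1.11 ± 0.09. In the median *Gzmk*+ *Havcr2*- cell these genes took 0.376%, 0.358% and 0.450% of UMIs, against 0.772%, 0.624% and 1.09%. Only 9.46%, 17.8% and 12.8% of the *Gzmk*+ *Havcr2*- cells lay above the median of the other group.

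**Figure D3:**
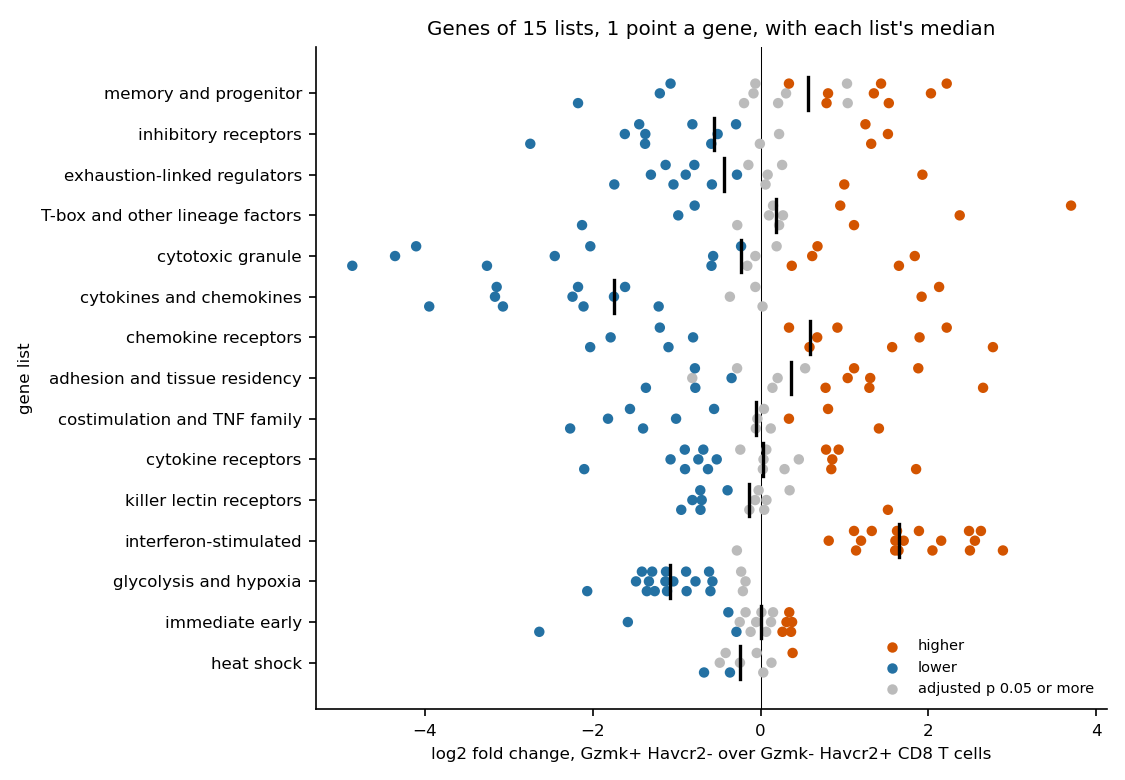
Log2 fold change of *Gzmk*+ *Havcr2*- over *Gzmk*- *Havcr2*+ CD8 T cells (horizontal axis) for the genes of 15 lists, 1 point a gene, colored by direction where the adjusted p is under 0.05 and gray otherwise, with a bar at the median of each list. The interferon-stimulated points lie to the right, apart from *Ifi44*, those of glycolysis and hypoxia lie to the left, and granule genes reach from -4.86 to 1.84.

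**Figure D4:**
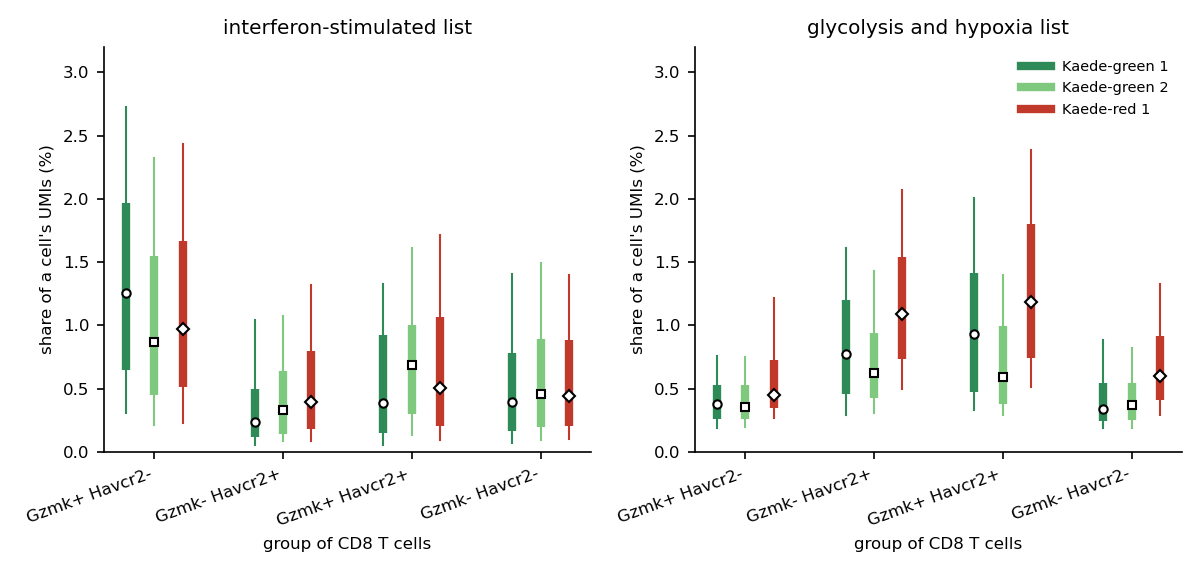
Share of each cell's UMIs (vertical axes, %) taken by the interferon-stimulated list (left) and the glycolysis and hypoxia list (right) in the 4 groups of CD8 T cells; symbols are medians over cells, thick bars span the interquartile range and thin bars the tenth to ninetieth percentiles, by library. The median of the *Gzmk*+ *Havcr2*- cells is the highest of the 4 groups on the left in each library, between 0.872% and 1.26%.

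Markers of other cells were read in both groups, beside the 33.9% of all genes tested that were called in this comparison. The calls among the B cell and myeloid genes were few and near that share. The summed B cell list was 116, 143 and 53.8 CPM against 102, 69.3 and 11.2 CPM, with *Igkc* its most abundant gene (55.2, 68.5 and 28.9 CPM against 41.9, 32.2 and 1.82 CPM), and 2 of 5 tested genes called higher, *Igkc* and *Ighm*. Without the library block neither passed (adjusted p = 0.315 and 0.135), and *Igkc* also missed the threshold with DESeq2 (0.218). The myeloid list summed to 678, 595 and 402 CPM against 772, 1297 and 562 CPM, with *Cst3* its most abundant gene, 2 of 7 tested called lower, *S100a8* and *S100a9* at 0 in both groups and *Adgre1* at 0 in the *Gzmk*+ *Havcr2*- cells. *Cd74* on that list fell (-1.0 ± 0.19, adjusted p = 9.01e-04), but without the cells of the highest doublet scores it was 0.37 (adjusted p = 0.432), and at 4000 to 12000 UMIs 0.22 (adjusted p = 0.705). The γδ T cell list summed to 167, 52.1 and 153 CPM against 128, 62.8 and 135 CPM, with *Tcrg-C2* its most abundant gene, 2 of 6 tested higher and 1 lower. The NK cell list summed to 1492, 2487 and 1258 CPM against 1013, 1114 and 373 CPM, with *Gzma*, which CD8 T cells also express, its most abundant gene (1271, 2158 and 1132 CPM against 826, 756 and 149.8 CPM). Of the regulatory and CD4 T cell list 6 of 7 tested were lower and 1 higher, with *Capg* its most abundant gene, and the summed level was 696, 723 and 864 CPM against 1864, 1565 and 1929 CPM. The part of these cells' RNA in the differences above was not tested.

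Cells with a UMI of a gene were counted after thinning to 2000 UMIs, with the share in B cells (328 cells with at least 2 *Cd79a* UMIs and no *Cd3e*) as a measure of free RNA, since B cells lack most of these genes. A UMI of *Cxcr3* was seen in 21.3% of *Gzmk*+ *Havcr2*- cells, 3.44% of *Gzmk*- *Havcr2*+ cells and 2.44% of B cells. For *Tcf7* the shares were 7.47%, 1.15% and 1.52%, for *Eomes* 11.4%, 1.61% and 1.83%, and for *Tox* 17.9%, 7.86% and 0.305%. The B cells came almost all from Kaede-green (210, 110 and 8 cells), while the *Gzmk*- *Havcr2*+ cells were mostly Kaede-red, so the pooled shares mix the libraries differently. Within Kaede-green 1 and 2 the *Gzmk*- *Havcr2*+ cells had 3.32% and 1.31% for *Tcf7* against 1.43% and 1.82% in B cells, and 1.24% and 2.63% for *Eomes* against 2.38% and 0.909%, with overlapping exact intervals, so these low shares cannot be told apart from free RNA there, and Kaede-red has too few B cells for this check. The fold changes of both genes over *Gzmk*- *Havcr2*+ cells are fitted without a correction for free RNA. *Slamf6* was seen in 9.23% of *Gzmk*+ *Havcr2*- cells, and B cells, which express it too, had 7.93%. *Ccl5* was seen in 96.2% and 60.4% of the CD8 T cell groups, but also in 37.2% of B cells, *Gzmb* in 82.2%, 80.9% and 23.2%, and *Gzma* in 49.0%, 22.0% and 25.3%. UMIs of these abundant genes were thus common in B cells too. Whether they came from free RNA or from doublets was not tested. Within Kaede-green 1 and 2, a UMI of *Gzma* was seen in 47.7% and 67.1% of *Gzmk*+ *Havcr2*- cells, in 32.0% and 41.7% of *Gzmk*- *Havcr2*+ cells and in 20.95% and 34.5% of B cells, and the exact intervals of the last pair overlapped in both libraries. In Kaede-red the T cell groups had 26.6% and 8.66%. *Pdcd1* was seen in 51.0% and 63.4% of the T cell groups and in 2.13% of B cells. Median depths before thinning were 6676, 13307.5 and 4315.5 UMIs.

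Against *Gzmk*+ *Havcr2*+ cells, which differ from them in *Havcr2* under the rule, the *Gzmk*+ *Havcr2*- cells held more RNA of interferon-stimulated genes and of many memory-linked genes, and less of perforin, of most granule genes and of glycolytic enzymes. Of 8912 genes tested, 974 (10.9%) were higher and 969 (10.9%) lower, 21.8% in all. At 4000 to 12000 UMIs there were 285 and 296, and after thinning to 3000 UMIs 21 and 37. Both settings also lower the number of cells, to 50, 102 and 64 *Gzmk*+ *Havcr2*+ cells in the first and to 174, 163 and 135 *Gzmk*+ *Havcr2*- cells in the second, so depth and cell number cannot be told apart here. Leaving out Kaede-green 1, Kaede-green 2 or Kaede-red gave 656 and 616, 627 and 594, and 561 and 516. Of memory and progenitor genes 10 of 17 were higher and 1 lower (median 0.54), of interferon-stimulated genes 18 of 18 were higher (median 1.17), of cytotoxic granule genes 4 of 17 were higher and 12 lower (median -0.51), and of glycolysis and hypoxia genes 17 of 20 were lower (median -1.10), beside a median of 0.01 over all genes tested. At 4000 to 12000 UMIs 7 of 16 memory and progenitor genes were higher and 2 lower, 16 of 18 interferon-stimulated genes were higher, 1 of 15 granule genes was higher and 5 were lower, and 13 of 19 genes of glycolysis and hypoxia were lower. *Prf1* stood at 132, 151 and 278 CPM against 682, 779.7 and 1272 CPM and fell by 2.35 ± 0.08 (adjusted p = 7.44e-12). *Gzmb* stood at 2949.9, 2957 and 3189.5 CPM against 5327, 4526 and 7456 CPM and fell by 0.94 ± 0.09 (adjusted p = 8.75e-07), without overlap. *Tcf7* stood at 50.2, 56.1 and 22.5 CPM against 20.3, 13.2 and 2.96 CPM and rose by 1.95 ± 0.23 (adjusted p = 1.05e-05). *Ccl5* was higher by 0.92 ± 0.06, *Eomes* by 1.50 ± 0.16 and *Tox* by 1.31 ± 0.21, while *Lag3* fell by 1.20, *Cxcr6* by 0.98, *Ifng* by 0.98, *Il7r* by 1.07 and *Pdcd1* by 0.33. After thinning, which left fewer cells and UMIs, *Eomes* and *Il7r* missed the threshold at much the same size (1.53, adjusted p = 0.488, and -0.99, adjusted p = 0.239). *Prf1*, *Gzmb*, *Tox*, *Ifng* and *Pdcd1* also missed it, at smaller sizes of -0.90, -0.45, 0.50, -0.31 and -0.040 (adjusted p = 0.111, 0.118, 0.921, 0.930 and 0.995). *Pdcd1* also missed it without the library block and with all groups in 1 fit (adjusted p = 0.281 and 0.0632). No direction is given for *Entpd1*, whose -0.36 (adjusted p = 0.0419) missed the threshold with DESeq2 (adjusted p = 0.340), without Kaede-green 2 (0.186), without Kaede-red (0.346) and at 4000 to 12000 UMIs (0.598), among others, and was 0.31 after thinning. *Tigit* and *Tbx21* did not pass (0.05 ± 0.26 and -0.12 ± 0.13).

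The 10 largest rises against *Gzmk*+ *Havcr2*+ cells were *Klf3*, *Ifit3b*, *Cxcl10*, *Tgtp1*, *Iigp1*, *Ifit1bl1*, *Tcf7*, *Ifit3*, *Crim1* and *Cxcr3*, from 2.58 to 1.93. After thinning *Iigp1* missed the threshold with a fold of much the same size (1.84 against 2.01, adjusted p = 0.281). *Ifit3b*, *Ifit1bl1* and *Cxcr3* missed it at 0.94, 0.56 and 1.23 (adjusted p = 0.418, 0.794 and 0.358), and *Cxcl10* was at -0.056 (adjusted p = 0.990). The 10 largest falls were *Tff1*, *Serpinb9b*, *Il1r2*, *Gzmd*, *Gzmf*, *Serpine2*, *Myo10*, *Bnip3*, *Spp1* and *Mt2*, from -3.52 to -2.55. *Bnip3* and *Mt2* are hypoxia- and metal-responsive genes. At 4000 to 12000 UMIs *Il1r2*, *Gzmd* and *Serpine2* missed the threshold and were far smaller, at -1.11, -0.082 and -1.35 against -3.36, -3.26 and -2.77 (adjusted p = 0.126, 0.960 and 0.119). *Serpinb9b* missed it with DESeq2 (-4.23, adjusted p = 0.0780) and *Gzmf* without the library block (-3.03, adjusted p = 0.0528), beside -3.45 and -3.08 with the block in edgeR. This comparison and the ones beside it share the *Gzmk*+ *Havcr2*- cells, so they are not independent.

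Set against *Gzmk*- *Havcr2*- cells, which lack *Havcr2* as well and differ in *Gzmk* under the rule, the *Gzmk*+ *Havcr2*- cells held less RNA of most memory and progenitor genes, among them *Tcf7*, *Ccr7* and *Il7r*. Of 10545 genes tested, 1076 (10.2%) were higher and 1128 (10.7%) lower, 20.9% in all, so that 48.8% of the calls were higher. There were 655 and 677 without Kaede-green 1, and 634 and 611 without Kaede-green 2. With library totals in place of TMM factors, edgeR's correction for composition, 67.9% of the calls were higher and the median gene moved by 0.10. Of memory and progenitor genes 12 of 19 were lower and 1 was higher (median -0.93). *Ccr7* stood at 105, 119 and 55.0 CPM against 498, 469 and 537 CPM and fell by 2.55 ± 0.16 (adjusted p = 1.55e-07). *Tcf7* stood at 50.2, 56.1 and 22.5 CPM against 118, 87.3 and 46.4 CPM and fell by 1.05 ± 0.12 (adjusted p = 2.08e-05), with overlap. Without the library block it missed the threshold at the same size (-1.06, adjusted p = 0.149), and after thinning it was much smaller and missed it (-0.21, adjusted p = 0.617). *Il7r* fell by 1.02 ± 0.13.

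*Gzma*, *Gzmb* and *Ccl5* were far higher than in *Gzmk*- *Havcr2*- cells, but their lists did not move one way. Of 17 cytotoxic granule genes 6 were higher, 2 lower and 9 not past the threshold (median 0.09), and of 16 cytokine and chemokine genes 3 were higher and 7 lower (median -0.25). *Gzma* stood at 1271, 2158 and 1132 CPM against 450.3, 531 and 73.4 CPM and rose by 2.33 ± 0.31 (adjusted p = 9.71e-05, and 0.0845 without the library block). *Gzmb* stood at 2949.9, 2957 and 3189.5 CPM against 827, 956 and 1299 CPM and rose by 1.48 ± 0.09 (adjusted p = 1.23e-07). *Ccl5* rose by 2.21 ± 0.20, *Eomes* by 1.41 ± 0.11, *Cxcr3* by 1.18 ± 0.11, *Maf* by 2.09 ± 0.14 and *Entpd1* by 1.80 ± 0.16, each without overlap between the groups. *Pdcd1* and *Tox* rose by 0.43 ± 0.09 and 0.91 ± 0.17 with overlap, and *Lag3* fell by 0.56 ± 0.09. *Pdcd1* missed the threshold after thinning (0.063, adjusted p = 0.726) and without Kaede-green 1 (0.30, adjusted p = 0.0809), and without the library block *Pdcd1*, *Tox* and *Lag3* missed it (adjusted p = 0.443, 0.140 and 0.276). Small rises of *Prf1* (0.25, adjusted p = 0.0379) and *Cxcr6* (0.32, adjusted p = 0.0289) turned into falls after thinning (-0.61, adjusted p = 1.05e-04, and -0.38, adjusted p = 0.0104), so no direction is given for them. The same holds for *Tigit*, whose 0.68 (adjusted p = 0.0303) turned to -0.35 after thinning (adjusted p = 0.694) and missed the threshold with DESeq2 (0.233), without Kaede-green 1 (0.145), without Kaede-green 2 (0.178) and at 4000 to 12000 UMIs (0.0729). *Ifng* (-0.14 ± 0.09, adjusted p = 0.350) and *Tbx21* (0.20 ± 0.12, adjusted p = 0.272) did not pass, though *Tbx21* was higher by 0.38 without Kaede-red (adjusted p = 0.00542). Of 19 interferon-stimulated genes 18 were higher and 1, *Ifi44*, was lower (median 0.92), and of 20 genes of glycolysis and hypoxia 6 were lower and 14 did not pass (median -0.19).

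The 10 largest rises against *Gzmk*- *Havcr2*- cells were *Gzma*, *Ccl5*, *Ifit1bl1*, *Maf*, *Tspan3*, *Ccr2*, *Entpd1*, *Asap2*, *Tmem140* and *Rsad2*, from 2.33 to 1.61. The 10 largest falls were led by *Dapl1*, a marker of naive and early memory CD8 T cells, at 7.18, 7.93 and 2.81 CPM against 117, 90.6 and 100.1 CPM (-4.14 ± 0.17, adjusted p = 8.13e-09). It was followed by *Tnfsf11*, *Igfbp7*, *Ccl1*, *Ccr7*, *Nrgn*, *Nrn1*, *Xcl1*, *Areg* and *Gldc*, from -3.25 to -1.78. *Areg* missed the threshold with DESeq2 (-1.84, adjusted p = 0.0564), and *Areg* and *Gldc* missed it without the library block (-1.90 and -1.81, adjusted p = 0.0704 and 0.0635), all at much the same size as the -1.86 and -1.78 with it.

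Other cells' markers and signs of RNA quality differed here too. *Malat1* took 2.42%, 2.56% and 1.93% of the UMIs of *Gzmk*+ *Havcr2*- cells. It took 1.35%, 1.68% and 1.09% in *Gzmk*+ *Havcr2*+ cells and 1.43%, 1.65% and 1.08% in *Gzmk*- *Havcr2*- cells. Ribosomal protein RNA took 26.0%, 25.9% and 28.3% of the UMIs of *Gzmk*+ *Havcr2*- cells and 35.8%, 33.8% and 33.6% of those of *Gzmk*- *Havcr2*- cells. The mast cell genes *Cpa3* and *Mcpt4*, at 0 in the former, stood at 35.1 and 47.6 CPM in Kaede-red of the latter and at or under 0.0895 CPM in its Kaede-green libraries. Of 6 B cell genes tested 3 were higher and 1 lower, with list sums of 116, 143 and 53.8 CPM against 67.1, 81.4 and 36.2 CPM, and of 8 regulatory and CD4 T cell genes 4 were lower and 0 higher (696, 723 and 864 CPM against 824, 968 and 1526 CPM). The myeloid list had 1 of 8 higher and 3 lower (678, 595 and 402 CPM against 719, 678 and 505 CPM). Against *Gzmk*+ *Havcr2*+ cells 1 of 4 B cell genes was higher, 5 of 6 regulatory and CD4 T cell genes were lower, and of 6 myeloid genes 1 was higher and 1 lower. All 4 γδ T cell genes tested there were called, 3 higher and 1 lower (median 1.45). Their list summed to 167, 52.1 and 153 CPM against 92.9, 59.5 and 116 CPM, so Kaede-green 2 went the other way. Over all genes tested, 21.8% were called in this comparison and 20.9% against *Gzmk*- *Havcr2*- cells, so 1 of 4 B cell genes is near the background. The part of these in the differences was not tested.

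Between the colors no test was made, since Kaede-red is 1 library and any spread would rest on the 2 Kaede-green libraries alone. A gene was named where Kaede-red differed from each Kaede-green library by at least 1 on the log2 scale, in the same direction and by more than Kaede-green 1 and Kaede-green 2 did. Of 2819 genes with at least 50 CPM in a library, 22 (0.78%) met this rule, 8 (0.284%) higher in Kaede-red *Gzmk*+ *Havcr2*- cells and 14 (0.497%) lower. With 1 Kaede-green library the rule is looser, and 17 were higher and 30 lower without Kaede-green 1, and 19 and 22 without Kaede-green 2. The higher ones were *Gzmc*, *Nrgn*, *Osgin1*, *Hspa1b*, *Hspa1a*, *AA467197*, *Fam162a* and *Ifitm2*. *Gzmc* stood at 126, 132 and 420.1 CPM, with log2 ratios of 1.73 (Poisson 95% interval 1.56 to 1.92) and 1.67 (1.51 to 1.83). The Poisson intervals here and in the next paragraph take each UMI as independent. They leave out the spread between cells and between libraries, so they are too narrow where single cells hold many UMIs. One Kaede-green 1 cell held 265 of the 334 *Gzmc* UMIs there, and 1 Kaede-red cell held 102 of 306 *Fam162a* UMIs. *Hspa1a* and *Hspa1b* encode inducible heat shock proteins and are near copies of each other. Single Kaede-red cells held 73 of 168 UMIs of *Hspa1a*, 44 of 149 of *Hspa1b*, 105 of 763 of *Ifitm2* and 44 of 225 of *Nrgn*. Whether the genes with such cells meet the rule without them was not tested.

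Genes lower in Kaede-red included receptors that guide T cells out of tissue or to CXCL12, and the progenitor factor *Tcf7*. *S1pr1* stood at 85.4, 114 and 28.5 CPM, *Cxcr4* at 259.6, 209.6 and 84.7 CPM, *Tcf7* at 50.2, 56.1 and 22.5 CPM and *Nfkbid*, a nuclear regulator of NF-κB, at 65.7, 67.4 and 26.1 CPM. For *Tcf7* the log2 ratios were -1.15 (-1.64 to -0.70) and -1.31 (-1.77 to -0.88), against -0.16 between the Kaede-green libraries. In *Gzmk*- *Havcr2*+ cells *Cxcr4* was also lowest in Kaede-red (73.7, 63.9 and 17.2 CPM). By the values given above, *Tcf7* was lowest in Kaede-red in each of the other groups too, so its fall is not particular to *Gzmk*+ *Havcr2*- cells. *Emb*, *Slfn5*, *Bcl2a1d*, *Zfp36*, *Tyrobp* and an uncharacterized gene made up the rest of the 14 with the MHC class II genes. The largest ratios were those of the MHC class II genes *H2-Eb1*, *H2-Ab1*, *H2-Aa* and *Cd74*, which antigen-presenting cells express. *H2-Eb1* stood at 61.2, 43.6 and 3.61 CPM. In Kaede-green 1, 1 cell held 101 of the 162 *H2-Eb1* UMIs. B cells, which hold MHC class II RNA, made up 2.10%, 0.993% and 0.0736% of the TILs of the 3 libraries. The part of B cells or of other cells in these ratios was not tested, and color and library cannot be told apart. *Gzmb* had log2 ratios of 0.11 and 0.11, *Pdcd1* of 0.42 and 0.60, *Lag3* of 0.77 and 0.56 and *Prf1* of 1.07 and 0.88, and none of these met the rule. On the memory and progenitor list 2 of 13 genes past 50 CPM were lower in Kaede-red, with medians of -0.38 and -0.70 beside -0.03 and -0.02 over all genes, and on the glycolysis and hypoxia list 0 of 10 passed, with medians of 0.47 and 0.56.

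**Figure D5:**
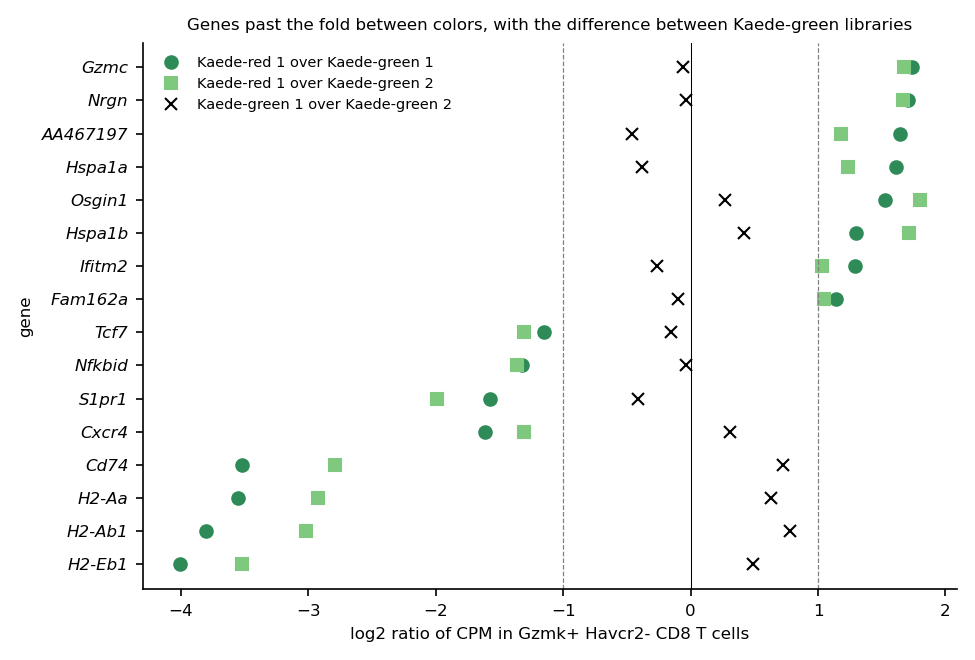
Log2 ratios of CPM in *Gzmk*+ *Havcr2*- CD8 T cells (horizontal axis) of Kaede-red over each Kaede-green library, with the ratio between the Kaede-green libraries as crosses, for the 8 genes furthest in each direction among those past the fold; dashed lines mark a log2 ratio of 1 either way. The MHC class II genes lie furthest to the left, down to -4.01, and all crosses lie within 1 of zero.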

How the data were processed

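For each library the authors deposited a matrix of raw UMI counts by gene, limited to barcodes called as cells. The submitters' processing notes name Cell Ranger 6.1.2 and mm10, and the matrix headers name Cell Ranger 6.0.1. All 32285 genes were used as deposited, 99.8% were found by identifier in GENCODE M21 of GRCm38, and 0 columns were left without a sample. The cells, lists and tests were chosen with earlier results of these data known. UMIs were summed for each library and group without the 9 genes of the rule (6 sums a comparison), filtered with filterByExpr and tested with edgeR 4.0.16 (TMM factors, quasi-likelihood test, library as a block, since both groups come from the same library). DESeq2 1.42.0 was an alternative. The libraries are the replicates. On simulated data 89.7%, 84.4% and 75.8% of genes changed by 1 on the log2 scale were recovered, with 3.76%, 6.91% and 5.62% of calls false. These are for *Gzmk*- *Havcr2*+, *Gzmk*+ *Havcr2*+ and *Gzmk*- *Havcr2*- cells in turn (9186, 8739 and 10401 genes). Few genes were changed in the simulation, as many up as down. Counts followed the fitted dispersion trend, with the same group effect in each library and no dominant single cells. The rates hold for that setting only, while 33.9% of genes were called against *Gzmk*- *Havcr2*+ cells.

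The text names, for each comparison, the 10 largest rises and falls among called genes that moved the same way in 3 libraries with at least 20 CPM, in the first comparison up to 4 genes with the smallest p and 2 that missed the threshold from each list, and 18 genes always given, of which some are not reported here. *S1pr1*, *Klf2*, *Lef1*, *Btla* and *Gzmm* fall outside that rule for the first comparison and were named after their values were seen, as were 5 of the 14 genes lower in Kaede-red. Doublets were not removed. A doublet score computed as in Scrublet was used to leave out 10% of cells as an alternative. Between colors, 0.5 was added to each count before CPM ratios were formed. Depths are given at the head of the report.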

Additional observations from a re-analysis of the deposited data

Results flagged for a closer look

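For some genes both Kaede-green libraries lay on one side of the comparison cells and Kaede-red on the other. No difference between the colors was tested. In the comparison with *Gzmk*- *Havcr2*+ cells, the log2 ratio of *Gzmb* in *Gzmk*+ *Havcr2*- cells was 0.19 and 0.44 in the Kaede-green libraries and -0.75 in Kaede-red. For *Entpd1* it was 0.69 and 0.32, and -0.13 in Kaede-red. For *Tigit* it was -0.24 and -0.06, and 0.32 in Kaede-red, and for *Nkg7* -0.21 and -0.28, and 0.092 in Kaede-red. Against *Gzmk*+ *Havcr2*+ cells, *Tigit* had -0.13 and -0.19, and 0.49 in Kaede-red. With *Gzmk*- *Havcr2*- cells, *Tbx21* had 0.70 and 0.31, and -0.061 in Kaede-red.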

How the results depend on the processing

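Counts of called genes moved with every kind of setting below, and both depth settings also leave fewer cells. Against *Gzmk*- *Havcr2*+, *Gzmk*+ *Havcr2*+ and *Gzmk*- *Havcr2*- cells in turn, the genes higher and lower were 824 and 663, 285 and 296, and 611 and 625 at 4000 to 12000 UMIs, and 597 and 538, 21 and 37, and 609 and 562 after thinning to 3000 UMIs. DESeq2 gave 902 and 901, 416 and 395, and 566 and 531. Without the replicate block, which pairs the groups of 1 library, edgeR gave 1049 and 934, 433 and 388, and 325 and 314. With library totals 1722 genes were higher than in *Gzmk*- *Havcr2*- cells. Leaving out 1 library gave 1166 to 1543 higher and 1103 to 1541 lower, 561 to 656 and 516 to 616, and 634 to 1268 and 611 to 1353. Between colors the counts higher and lower in Kaede-red were 14 and 39 after thinning and 20 and 35 from 20 CPM, 13 were higher with at least 3 *Gzmk* UMIs and 4 at 4000 to 12000 UMIs, 9 were lower with at least 1 *Gzmk* UMI, and without a Kaede-green library 17 to 19 were higher and 22 to 30 lower. The shares were 28.6%, 25.4% and 16.4% with at least 1 *Gzmk* UMI, 12.5%, 11.5% and 6.89% with at least 3, 16.2%, 10.1% and 6.20% after thinning, and 19.7% and 18.5% in Kaede-green 2 and Kaede-red at 4000 to 12000 UMIs. The shares of *Gzmk*+ *Havcr2*- cells with a UMI, after thinning to 4000 UMIs and without thinning, were 16.1% and 24.2% for *Slamf6*, 15.0% and 20.6% for *Tcf7*, 62.4% and 72.6% for *Pdcd1*, 26.7% and 36.7% for *Tox*, and 17.9% and 27.0% for *Eomes*.

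Of single-gene values under the alternatives, 1987 kept direction and side of the threshold, 79 lost the call, 13 gained it and 24 changed sign. Against *Gzmk*- *Havcr2*+ cells, *Tigit* turned to 0.018 with library totals, 0.022 with all groups in 1 fit, and 0.092 and 0.021 without Kaede-green 1 or 2 (-0.16 without Kaede-red). *Gzmb* turned to 0.31 without Kaede-red (-0.33 without Kaede-green 2), 0.066 with at least 3 *Gzmk* UMIs and 0.43 at 4000 to 12000 UMIs, *Ifi44* to 0.31 without Kaede-green 2 (-0.65 without Kaede-green 1), *Entpd1* to -0.11 with at least 1 *Gzmk* UMI, and *Cd74* to 0.22 at 4000 to 12000 UMIs and 0.37 without the highest doublet scores. Against *Gzmk*+ *Havcr2*+ cells, *Tigit* turned to -0.18 without Kaede-red (0.20 without Kaede-green 2), -0.28 and -0.064 with at least 1 or 3 *Gzmk* UMIs and -0.065 without the highest doublet scores, *Tbx21* to 0.017 without Kaede-red (-0.22 without Kaede-green 2) and 0.76 after thinning, and *Cxcl10* and *Entpd1* to -0.056 and 0.31 after thinning. With *Gzmk*- *Havcr2*- cells, *Ifng* turned to 0.0013 without Kaede-green 2 (-0.27 without Kaede-green 1) and 0.19 with at least 1 *Gzmk* UMI, and *Cxcr6*, *Prf1* and *Tigit* to -0.38, -0.61 and -0.35 after thinning. The cause was not tested.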
